A study of Rattus norvegicus with 6 samples.

Results

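The genes described here are those of DNA replication and mitosis. A list of 49 rat genes was used that a dividing cell needs to copy its DNA and to separate the copies, together with the cyclins, the cyclin-dependent kinases (Cdks) and the inhibitors that set the pace of the cell cycle. No measured value entered the rule, which took every listed gene that had at least 1 array probeset assigned to it alone. The list itself was chosen with earlier results of these data known. Of the 49 genes 47 were measured, out of 12603 genes in all. These were 15 replication genes, 14 mitotic genes, 12 cyclins and Cdks, the transcription factors E2f1 and Foxm1, and 4 inhibitors. Rrm2, the small subunit of ribonucleotide reductase, was present only on probesets that also carry another symbol, and Cdc6, a loader of the replicative helicase, was not matched to a probeset. Both were not analysed here.

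In a cycling cell, D-type cyclins with Cdk4 and Cdk6 release E2F factors from the retinoblastoma protein, and E2F factors then drive the genes of DNA replication. The genes of mitosis follow later in the cycle. In human and mouse cells they are driven by Foxm1 and B-Myb through a promoter element called CHR, often with CCAAT boxes nearby. The mRNAs of both groups are abundant in dividing cells and scarce in resting ones, so that arrays of a cell population read both how many cells divide and how much mRNA each one makes, and in these bulk samples these cannot be told apart. Adult pancreatic β-cells seldom divide, whereas the insulinoma line used here grows continuously in culture.

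The cells were rat INS-1 insulinoma cells, a model of the β-cell, in 1 clone in which doxycycline (Dox) switches on a GFP fusion of insulin 2 carrying the C96Y (Akita) mutation. The groups were cells given Dox with 5 μM 4μ8c, which blocks the endoribonuclease of the stress sensor IRE1, cells given Dox without it, and untreated cells, all harvested at 48 h. The labels give Dox at 4 μg/ml. A lower concentration is named in the methods of the study. All 3 groups carry the same inducible gene and were grown with the same selection drugs. No Dox-treated cells without the mutant gene are among the arrays, so a response to Dox as a drug cannot be told apart from a response to mutant proinsulin. The study also ran 4μ8c without Dox, and no such array is used here. Each of the 2 experiments gave 1 array per group, 6 Affymetrix arrays in all, and the number of arrays limits the precision.

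All values below are on the log2 scale. The authors deposited values that are centred, probeset by probeset, on the arrays of 1 experiment, so that an array shows how far a gene lay above or below the middle of its own experiment and not how abundant its mRNA was. A difference is therefore always taken between arrays of the same experiment and then averaged over both, and a difference of -0.16 stands for a ratio of 0.893. Tests were made with limma, with the experiment as a term. A gene passed where its p, adjusted by Benjamini-Hochberg across the 12603 genes, was under 0.05. As a check of the treatment, Trib3, a target of the stress factors ATF4 and CHOP, rose by 2.80 with Dox+4μ8c and by 2.88 with Dox (adjusted p = 0.00019 and 0.00016). The rat Ins2 probeset differed by -0.04 with Dox+4μ8c and by -0.13 with Dox and did not pass (adjusted p = 0.75 and 0.21). The Dox array of experiment 2 had the widest spread of values, with an SD over all probesets of 0.18 against 0.05 to 0.12 on the other 5 arrays. On the same array the 5′ signal of the poly-A spike-in controls, relative to their 3′ signal, was 0.65 (log2) below that of the untreated array of its experiment (change of -0.65), against changes of -0.26 to 0.10 on the other 3 treated arrays. For the β-actin mRNA of the cells the change was -0.22 on this array, against -0.08 to 0.21 on the other 3. In experiment 1, 25.5% of probesets had the same value on all 3 arrays, against 0.0% in experiment 2, so that a difference of exactly 0 in experiment 1 is a property of the deposited values. Because the values carry no levels, β-cell markers could not be checked for presence, and only their differences can be given. Of the 9 β-cell markers measured, 4 were lower than untreated in both experiments with Dox+4μ8c and 7 with Dox, with medians of -0.02 and -0.17, and 1 and 3 of them fell. Over all genes 28.9% and 24.8% were lower in both experiments, or 39.7% and 33.2% of those not tied in experiment 1. Of all genes 1.13% and 2.01% were called lower. All 9 were higher with Dox+4μ8c than with Dox in both experiments, with a median of 0.19, and 1 passed. In that comparison 19% of all genes were higher in both experiments and 0.175% were called higher. Of the 4 α-cell markers measured only Gcg, the gene of glucagon, passed, with differences of -1.36 with Dox+4μ8c and -2.22 with Dox (adjusted p = 0.0061 and 0.00072). The other α-cell markers did not share this fall. The medians of the 4 were 0.02 and 0.0006, and 1 of the 4 was lower than untreated in both experiments in each group. The part of these differences in the results below was not tested.

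The promoters show the features by which these genes are usually grouped, and 5 are printed below to show them at base level. They come from RefSeq (GRCr8) and run from 250 bases before to 50 bases after the annotated start of the gene, 5′ to 3′ on the strand of the gene. Promoters were found for 37 of the 47 measured genes. Capitals mark every match, on either strand, to the E2F-type letters TTTCGCGC or TTTGGCGC, to the CHR letters TTTGAA or TTCGAA, and to the CCAAT box (CCAAT). Matches may overlap one another. Mcm5 (a subunit of the replicative helicase, chr19:13488563-13488862, plus strand) and Pole (the catalytic subunit of DNA polymerase epsilon, chr12:52053613-52053912, minus strand) are shown for the replication genes. Top2a (DNA topoisomerase II alpha, which untangles sister chromatids, chr10:84473044-84473343, minus strand) and Ccnb2 (cyclin B2, chr8:79981609-79981908, minus strand) are shown for mitosis. Cdkn1a (the Cdk inhibitor p21, chr20:7150682-7150981, plus strand) is shown for the inhibitors.
Mcm5: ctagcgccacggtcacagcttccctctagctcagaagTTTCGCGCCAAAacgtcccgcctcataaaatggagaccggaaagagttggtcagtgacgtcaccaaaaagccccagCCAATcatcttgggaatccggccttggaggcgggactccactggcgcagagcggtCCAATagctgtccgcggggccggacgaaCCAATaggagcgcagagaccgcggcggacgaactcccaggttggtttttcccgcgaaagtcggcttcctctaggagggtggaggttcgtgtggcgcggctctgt
Pole: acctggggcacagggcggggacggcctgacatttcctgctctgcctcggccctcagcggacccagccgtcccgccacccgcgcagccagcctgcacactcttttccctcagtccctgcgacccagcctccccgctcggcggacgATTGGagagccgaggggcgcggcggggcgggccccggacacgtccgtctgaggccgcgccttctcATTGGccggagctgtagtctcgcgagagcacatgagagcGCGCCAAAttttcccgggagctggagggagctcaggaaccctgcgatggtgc
Top2a: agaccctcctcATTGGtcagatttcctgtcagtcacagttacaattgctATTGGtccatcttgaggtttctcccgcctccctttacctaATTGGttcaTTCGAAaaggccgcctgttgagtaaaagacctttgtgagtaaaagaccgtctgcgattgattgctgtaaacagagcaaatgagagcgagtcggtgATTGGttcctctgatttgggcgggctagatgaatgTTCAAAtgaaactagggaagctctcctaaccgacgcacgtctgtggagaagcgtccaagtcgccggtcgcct
Ccnb2: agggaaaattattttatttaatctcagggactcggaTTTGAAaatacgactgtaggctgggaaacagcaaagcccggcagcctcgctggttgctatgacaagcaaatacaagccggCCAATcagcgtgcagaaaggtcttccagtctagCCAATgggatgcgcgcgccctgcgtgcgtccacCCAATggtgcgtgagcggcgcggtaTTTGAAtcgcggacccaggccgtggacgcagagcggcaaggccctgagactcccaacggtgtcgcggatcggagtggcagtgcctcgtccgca
Cdkn1a: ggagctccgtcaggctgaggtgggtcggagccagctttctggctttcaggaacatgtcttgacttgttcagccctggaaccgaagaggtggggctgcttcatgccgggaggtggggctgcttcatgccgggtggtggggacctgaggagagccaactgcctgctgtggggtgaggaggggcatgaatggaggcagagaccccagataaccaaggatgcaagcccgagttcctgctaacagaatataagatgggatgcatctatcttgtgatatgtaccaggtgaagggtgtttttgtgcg

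In Mcm5 the E2F-type letters overlap on both strands at offsets -213 and -209, followed by 3 CCAAT boxes, where an offset gives the first printed base of a match and 0 is the first base of the gene. In Pole 1 such match lies at offset -2. Top2a holds CHR letters at offsets -152 and -22 and 4 CCAAT boxes, and Ccnb2 holds CHR letters at offsets -214 and -43 and 3 CCAAT boxes. The Cdkn1a window holds none of the 3 motifs. Over the whole list, E2F-type letters stood in 9 of 14 replication promoters (64.3%), in 0 of 13 mitotic promoters and in 1 of 7 promoters of cyclins and Cdks (Cdk1), against 0.841% of all 27457 promoters of this length. CHR letters stood in 9 of 13 mitotic promoters (69.2%) and in 3 of 14 replication promoters (21.4%), against 19.5% of all. A CHR together with a CCAAT box stood in 8 of 13 mitotic promoters (61.5%), against 7.83% of all. Among the 10430 promoters of measured genes the shares were 1.39% for E2F-type letters, 13.1% for CHR letters and 5.49% for CHR with CCAAT. Neither E2F-type nor CHR letters stood in the 3 inhibitor promoters found. These are matches of letters in a fixed window and not measured binding sites. Promoters of Aurkb, E2f1 and Foxm1 were not analysed here.

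In both Dox-treated groups most genes of the list were lower than in untreated cells, by small amounts. With Dox+4μ8c, 39 of the 47 genes were lower than untreated in both experiments and 5 were higher in both. With Dox, 32 of 47 were lower in both experiments and 3 were higher in both. Over all 12603 genes the shares lower in both experiments were 28.9% with Dox+4μ8c and 24.8% with Dox, and the shares higher in both were 23.9% and 26.6%. Among the genes whose 2 arrays were not tied in experiment 1 the shares lower in both were 39.7% and 33.2%. The median difference of the 47 genes was -0.15 with Dox+4μ8c and -0.16 with Dox, against -0.0018 and 0.01 over all genes. None of the 47 reached 1.5 fold in either direction, which 0.159% (lower) and 0.302% (higher) of all genes did with Dox+4μ8c and 0.175% (lower) and 0.968% (higher) did with Dox. The 2 comparisons share the untreated arrays, so they are not independent of each other.

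Few of these differences passed the test gene by gene. With Dox+4μ8c, 1 of 47 genes fell (Pole) and 0 rose, against 1.13% (lower) and 1.17% (higher) of all genes called. With Dox, 2 of 47 fell (Pole and Aurkb) and 0 rose, against 2.01% (lower) and 4.42% (higher) of all genes called. With so few calls, these counts alone say little about the list. At an unadjusted p under 0.05, 26 of 47 genes were lower and 0 higher with Dox+4μ8c, where 9.15% of all genes were lower and 6.27% higher. At the same threshold 22 were lower and 1 was higher with Dox, where 8.44% of all genes were lower and 11.2% higher. Between Dox+4μ8c and Dox, 0 of 47 genes passed, where 0.175% of all genes were called higher and 1.61% lower. At an unadjusted p under 0.05 only Birc5 differed between these groups, being lower with Dox+4μ8c, where 8.44% of all genes were lower and 2.79% higher.

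**Figure D1:**
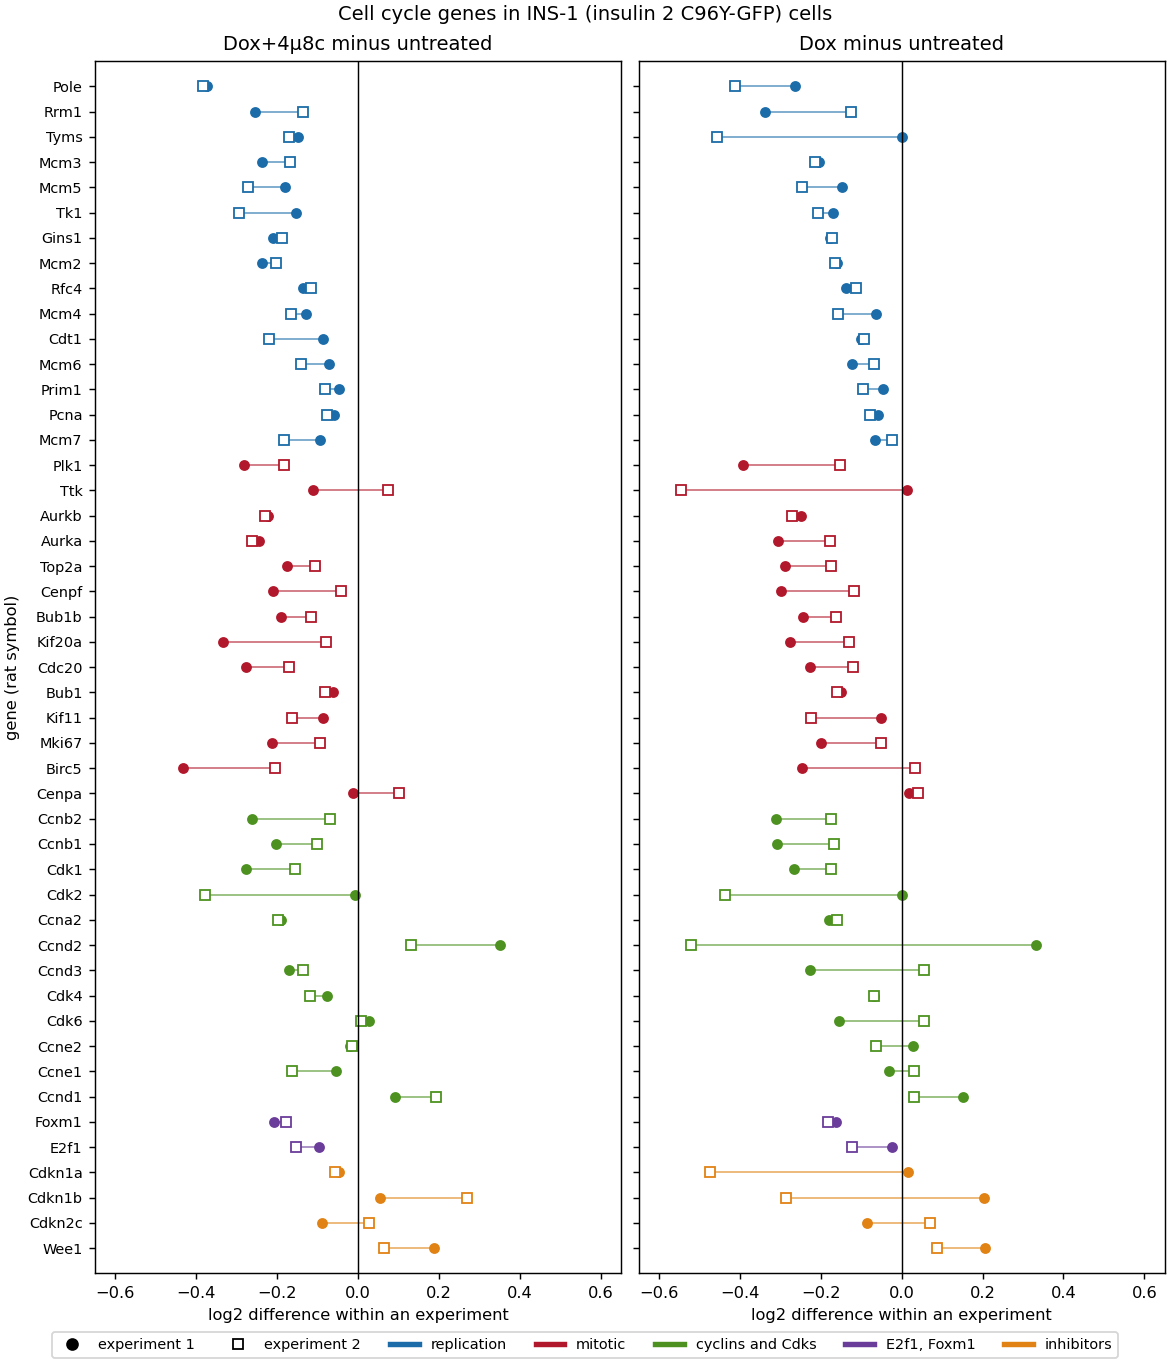
Each point is the log2 difference between 2 arrays of one experiment for 1 of the 47 genes, with Dox+4μ8c minus untreated on the left and Dox minus untreated on the right. Filled circles are experiment 1 and open squares experiment 2, a line joins the experiments, and colours give the gene class. All 15 replication genes lie left of 0 in both experiments on the left panel, and 14 of 15 do on the right panel, with Tyms at 0 in experiment 1.

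The replication genes were nearly uniform in direction. These genes encode the Mcm2 to Mcm7 helicase, the loading factor Cdt1, the helicase partner Gins1, the sliding clamp Pcna with its loader subunit Rfc4, the primase Prim1, the polymerase Pole and the enzymes of nucleotide supply Rrm1, Tyms and Tk1. All 15 were lower than untreated in both experiments with Dox+4μ8c, with a median of -0.16. With Dox 14 of 15 were lower in both, also with a median of -0.16, and Tyms was tied in experiment 1. The class median was -0.15 in experiment 1 and -0.17 in experiment 2 with Dox+4μ8c. With Dox it was -0.14 in experiment 1 and -0.16 in experiment 2. The smallest differences were those of Prim1 (-0.06) with Dox+4μ8c and of Mcm7 (-0.05) with Dox.

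Pole, the catalytic subunit of the polymerase that copies the leading strand, changed the most in this class. Its centred values were -0.11 and -0.07 in Dox+4μ8c cells, 0.00 and -0.10 in Dox cells, and 0.26 and 0.31 in untreated cells (experiments 1 and 2 each). In each experiment the untreated array stood above both treated arrays, by more than the treated arrays differed from each other. Pole fell by 0.38 with Dox+4μ8c (difference -0.38, SE 0.06, ratio 0.769, adjusted p = 0.031). With Dox it fell by 0.34 (difference -0.34, SE 0.06, ratio 0.791, adjusted p = 0.022). The difference between Dox+4μ8c and Dox was -0.04, with a 95% interval of -0.18 to 0.10. The call with Dox was lost without the Dox array of experiment 2 (adjusted p = 0.06), without either Dox+4μ8c array (0.067 for each) and without the untreated array of experiment 1 (0.082) or 2 (0.16). The call with Dox+4μ8c was lost without the Dox+4μ8c array of experiment 1 (0.31) or 2 (0.24) and without the untreated array of experiment 1 (0.12) or 2 (0.21).

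Rrm1, the large subunit of ribonucleotide reductase, had the next largest mean difference in the class with Dox. Its values were 0.00 and -0.03 in Dox+4μ8c cells, -0.08 and -0.02 in Dox cells, and 0.25 and 0.10 in untreated cells. The untreated arrays were again the highest, in experiment 1 by more than in experiment 2. The differences from untreated were -0.20 with Dox+4μ8c and -0.23 with Dox and did not pass (adjusted p = 0.20 and 0.092).

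Of the helicase subunits, Mcm2 was -0.08 and -0.06 in Dox+4μ8c cells, 0.00 and -0.02 in Dox cells, and 0.16 and 0.15 in untreated cells. In each experiment the treated arrays lay close together and below the untreated one. The differences of Mcm2 from untreated were -0.22 with Dox+4μ8c and -0.16 with Dox (adjusted p = 0.077 and 0.11). Mcm3 and Mcm5 differed by -0.20 and -0.23 with Dox+4μ8c and by -0.21 and -0.20 with Dox. Mcm4 and Mcm6 differed by -0.15 and -0.11 with Dox+4μ8c and by -0.11 and -0.10 with Dox. For Mcm7 the values were -0.03 and -0.10 in Dox+4μ8c cells, 0.00 and 0.06 in Dox cells, and 0.07 and 0.08 in untreated cells. In experiment 2 its Dox array lay close to the untreated one, and it did not pass in any comparison.

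Tyms, thymidylate synthase, varied between the experiments. Its values were -0.15 and 0.01 in Dox+4μ8c cells, 0.00 and -0.27 in Dox cells, and 0.00 and 0.18 in untreated cells. The low Dox value belongs to the Dox array of experiment 2, and the Dox and untreated values of experiment 1 were the same. Its difference with Dox was -0.23 with an SE of 0.11 (adjusted p = 0.33). The remaining replication genes lay between these. Tk1, Gins1 and Cdt1 differed by -0.22, -0.20 and -0.15 with Dox+4μ8c and by -0.19, -0.18 and -0.10 with Dox. Pcna, the clamp that tethers polymerases to DNA, differed by only -0.07 with Dox+4μ8c and -0.07 with Dox. Rfc4 differed by -0.13 with Dox+4μ8c and by -0.12 with Dox.

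The mitotic genes, which build and police the spindle, had the largest median difference of the 4 larger classes with Dox. It was -0.15 with Dox+4μ8c and -0.20 with Dox, and 12 and 11 of the 14 genes were lower than untreated in both experiments. In experiment 1 the class median was -0.21 with Dox+4μ8c and -0.25 with Dox. In experiment 2 it was -0.11 with Dox+4μ8c and -0.16 with Dox. The difference between the experiments was not tested.

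Aurkb, the kinase of the chromosomal passenger complex that corrects wrong attachments of chromosomes to the spindle, was the mitotic gene that passed. Its values were 0.00 and -0.06 in Dox+4μ8c cells, -0.03 and -0.10 in Dox cells, and 0.22 and 0.17 in untreated cells. In each experiment both treated arrays lay below the untreated one. With Dox it fell by 0.26 (difference -0.26, SE 0.05, ratio 0.835, adjusted p = 0.026). With Dox+4μ8c the difference was -0.23 and did not pass (SE 0.05, adjusted p = 0.071). The difference between Dox+4μ8c and Dox was 0.03, with a 95% interval of -0.08 to 0.14. The call with Dox was lost without the Dox array of experiment 2 (adjusted p = 0.074), without either Dox+4μ8c array (0.089 for each) and without the untreated array of experiment 1 (0.12) or 2 (0.17).

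Several mitotic genes came close to the threshold with Dox. Plk1, the kinase that drives entry into mitosis, was 0.00 and -0.07 in Dox+4μ8c cells, -0.11 and -0.03 in Dox cells, and 0.28 and 0.12 in untreated cells. Top2a was 0.00 and -0.03 in Dox+4μ8c cells, -0.11 and -0.09 in Dox cells, and 0.18 and 0.08 in untreated cells. For both genes the untreated arrays were the highest of their experiment, and the Dox array was the lowest of the 3 in each experiment for Top2a. Plk1 differed by -0.23 with Dox+4μ8c and by -0.27 with Dox (adjusted p = 0.15 and 0.069). Top2a differed by -0.14 with Dox+4μ8c and by -0.23 with Dox (adjusted p = 0.25 and 0.053). Aurka, the kinase of the spindle poles, differed by -0.25 with Dox+4μ8c and by -0.24 with Dox (adjusted p = 0.086 and 0.061).

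Bub1b and Bub1 encode proteins of the spindle checkpoint, which holds chromosome separation until all chromosomes are attached. Both were lower than untreated in both experiments without passing, whereas the checkpoint kinase gene Ttk, given further on, was not. Bub1b differed by -0.15 with Dox+4μ8c and by -0.20 with Dox, and Bub1 by -0.07 with Dox+4μ8c and by -0.16 with Dox. Cdc20, the activator of the ubiquitin ligase that the checkpoint restrains, was -0.06 and -0.08 in Dox+4μ8c cells, -0.02 and -0.03 in Dox cells, and 0.21 and 0.09 in untreated cells. These values average 5 probesets. The untreated arrays of Cdc20 were the highest, and it differed by -0.22 with Dox+4μ8c and by -0.17 with Dox without passing (adjusted p = 0.097 and 0.12). In experiment 2, 1 of its probesets was higher in Dox cells (0.14) than in untreated cells (-0.03). The others were highest in untreated cells in both experiments. The spindle motors Kif20a and Kif11 differed by -0.21 and -0.12 with Dox+4μ8c and by -0.20 and -0.14 with Dox. Cenpf, a protein of the kinetochore, differed by -0.13 with Dox+4μ8c and by -0.21 with Dox. Mki67, the gene of the proliferation antigen Ki-67, differed by -0.15 with Dox+4μ8c and by -0.13 with Dox. None of these passed.

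Birc5 departed from most of the mitotic genes with Dox, and Cenpa did so in both groups. Ttk, given further on, had opposite signs in the experiments in both groups. Birc5 encodes survivin, the partner of Aurkb in the chromosomal passenger complex. Its values were -0.19 and -0.10 in Dox+4μ8c cells, 0.00 and 0.14 in Dox cells, and 0.25 and 0.10 in untreated cells. Both Dox+4μ8c arrays were the lowest of their experiment, and the Dox array of experiment 2 was above its untreated array. The difference from untreated was -0.32 with Dox+4μ8c and -0.11 with Dox (adjusted p = 0.099 and 0.47). Relative to Dox, Birc5 in Dox+4μ8c cells differed by -0.21 (SE 0.07, unadjusted p = 0.028, adjusted p = 0.34). Cenpa, the histone H3 variant of centromeres, was -0.01 and 0.03 in Dox+4μ8c cells, 0.02 and -0.03 in Dox cells, and 0.00 and -0.07 in untreated cells. The untreated array was not the highest in either experiment, and Cenpa differed by 0.04 with Dox+4μ8c and 0.03 with Dox.

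**Figure D2:**
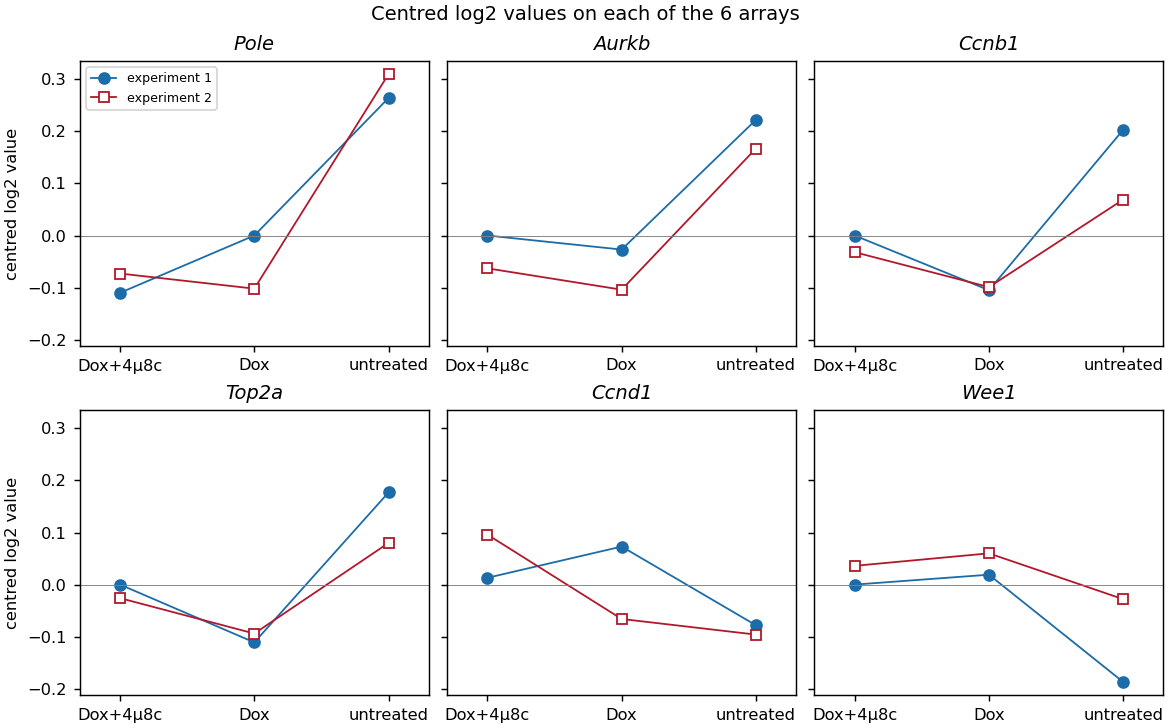
Centred log2 values of 6 genes on each array, with groups along the horizontal axis and 1 line for each experiment. Pole, Aurkb, Ccnb1 and Top2a were highest in untreated cells in both experiments, whereas Ccnd1 and Wee1 were lowest there. The Ccnd1 values average 2 probesets that disagreed, as given in the text.

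The cyclins and Cdks did not move as 1 block. With Dox+4μ8c 9 of 12 were lower than untreated in both experiments and 3 were higher in both, with a median of -0.13. With Dox 5 of 12 were lower in both, 1 was higher in both, 1 was tied in experiment 1 and the median was -0.09. The shares lower in both were thus 75% and 41.7%, against 28.9% and 24.8% of all genes. Among genes not tied in experiment 1 they were 39.7% and 33.2%. Of all genes 23.9% and 26.6% were higher in both. None of the 12 passed the test in any comparison. Those that act at the entry to mitosis, namely cyclins B1 and B2, cyclin A2 and Cdk1, were lower in both experiments in both comparisons with untreated. Ccnb1 was 0.00 and -0.03 in Dox+4μ8c cells, -0.11 and -0.10 in Dox cells, and 0.20 and 0.07 in untreated cells. Ccnb2 was 0.00 and -0.04 in Dox+4μ8c cells, -0.05 and -0.14 in Dox cells, and 0.26 and 0.04 in untreated cells. In both genes the order within each experiment was untreated above Dox+4μ8c above Dox.

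The difference of Ccnb1 from untreated was -0.15 with Dox+4μ8c and -0.24 with Dox (adjusted p = 0.24 and 0.058). For Ccnb2 it was -0.17 with Dox+4μ8c and -0.24 with Dox (adjusted p = 0.26 and 0.075). Cdk1, the kinase partner of the B-type cyclins, differed by -0.22 with Dox+4μ8c and by -0.22 with Dox (adjusted p = 0.11 and 0.064). Ccna2 differed by -0.19 with Dox+4μ8c and by -0.17 with Dox.

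The cyclins and kinases of the G1 phase went different ways. Ccnd1, cyclin D1, was 0.01 and 0.10 in Dox+4μ8c cells, 0.07 and -0.07 in Dox cells, and -0.08 and -0.10 in untreated cells. Averaged over its 2 probesets, the untreated arrays were the lowest of their experiment. The differences were 0.14 with Dox+4μ8c and 0.09 with Dox (adjusted p = 0.37 and 0.47). Only 1 of the probesets had the untreated array lowest in both experiments. In experiment 1 the other was 0.00 on both the untreated and the Dox+4μ8c array. In experiment 2 it was -0.084 in untreated cells and -0.125 in Dox cells. Ccnd2, cyclin D2, was 0.02 and 0.15 in Dox+4μ8c cells, 0.00 and -0.51 in Dox cells, and -0.33 and 0.02 in untreated cells. Its Dox arrays lay 0.33 above untreated in experiment 1 and at -0.52 relative to untreated in experiment 2, so the experiments had opposite signs and the mean of -0.10 describes neither. The low value again belongs to the Dox array of experiment 2. With Dox+4μ8c Ccnd2 was higher than untreated in both experiments (0.35 and 0.13) and did not pass (adjusted p = 0.59).

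Ccnd3, cyclin D3, was 0.00 and -0.12 in Dox+4μ8c cells, -0.06 and 0.07 in Dox cells, and 0.17 and 0.01 in untreated cells. Its Dox differences from untreated had opposite signs in the experiments. Ccne1, cyclin E1, which acts with Cdk2 at the start of replication, was -0.02 and -0.11 in Dox+4μ8c cells, 0.00 and 0.09 in Dox cells, and 0.03 and 0.06 in untreated cells. Its Dox+4μ8c arrays were the lowest of their experiment, by small amounts. It differed from Dox by -0.11 with Dox+4μ8c (95% interval -0.25 to 0.03). Cdk2 was tied between Dox and untreated in experiment 1 and differed by -0.44 in experiment 2. In experiment 2 its untreated array stood at 0.35, apart from the other arrays, and the Dox+4μ8c differences were -0.01 and -0.38. Cdk4, Cdk6 and Ccne2 differed by -0.10, 0.02 and -0.02 with Dox+4μ8c and by -0.07, -0.05 and -0.02 with Dox.

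Foxm1 and E2f1, the factors that drive the mitotic and the replication genes in other cells, were lower than untreated in both experiments in both groups. Foxm1 was -0.05 and -0.01 in Dox+4μ8c cells, 0.00 and -0.01 in Dox cells, and 0.16 and 0.17 in untreated cells. In each experiment the untreated array stood clear of both treated ones. Foxm1 differed by -0.19 with Dox+4μ8c and by -0.17 with Dox (adjusted p = 0.11 and 0.094). E2f1 was -0.07 and -0.02 in Dox+4μ8c cells, 0.00 and 0.02 in Dox cells, and 0.02 and 0.14 in untreated cells. In experiment 1 the untreated array lay only slightly above the Dox array, and the differences were -0.13 with Dox+4μ8c and -0.07 with Dox.

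The 4 inhibitors of the cell cycle showed no shared direction and none passed. Their median difference from untreated was 0.05 with Dox+4μ8c and -0.02 with Dox. With Dox it was 0.11 in experiment 1 and -0.11 in experiment 2. The median of the inhibitors minus that of the mitotic genes was 0.22 in experiment 1 and 0.16 in experiment 2 with Dox+4μ8c. With Dox it was 0.36 in experiment 1 and 0.05 in experiment 2. Minus that of the replication genes it was 0.15 and 0.22 with Dox+4μ8c, and 0.25 and 0.05 with Dox. Without the Dox array of experiment 1 the inhibitor median with Dox was -0.149, and without that of experiment 2 it was 0.094. With Dox+4μ8c it was 0.079 without the Dox+4μ8c array of experiment 1, -0.059 without that of experiment 2 and 0.129 without the untreated array of experiment 2. With so few inhibitors these are descriptions without a test, and the probesets of Cdkn1a, Cdkn1b and Cdkn2c disagreed, as given next.

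Wee1, the kinase that holds Cdk1 inactive before mitosis, was 0.00 and 0.04 in Dox+4μ8c cells, 0.02 and 0.06 in Dox cells, and -0.19 and -0.03 in untreated cells. Its untreated array was the lowest of each experiment. Wee1 differed by 0.13 with Dox+4μ8c and by 0.15 with Dox (adjusted p = 0.34 and 0.19). Cdkn2c, the inhibitor p18, was 0.00 and -0.04 in Dox+4μ8c cells, 0.00 and 0.00 in Dox cells, and 0.09 and -0.07 in untreated cells. These values average 2 probesets that went opposite ways. One of them was lower than untreated in both experiments with Dox+4μ8c (-0.21 and -0.11) and with Dox (-0.25 and -0.12). The other was higher in both experiments with Dox+4μ8c (0.03 and 0.17) and with Dox (0.08 and 0.26).

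Cdkn1a and Cdkn1b, the inhibitors p21 and p27, were each read by 2 probesets that went apart most on the Dox array of experiment 2. For Cdkn1a, 1 probeset (1387391_at) was -0.03 and -0.01 in Dox+4μ8c cells, 0.09 and -0.85 in Dox cells, and 0.00 and 0.01 in untreated cells. Its other probeset (1388674_at) was 0.00 and -0.05 in Dox+4μ8c cells, 0.00 and -0.04 in Dox cells, and 0.06 and 0.04 in untreated cells. Only the first of them was low, and only on the Dox array of experiment 2.

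For Cdkn1b, 1 probeset (1369192_at) was 0.00 and 0.31 in Dox+4μ8c cells, 0.29 and -0.77 in Dox cells, and -0.04 and -0.07 in untreated cells. The other (1373812_at) was 0.00 and 0.07 in Dox+4μ8c cells, 0.01 and 0.05 in Dox cells, and -0.07 and -0.08 in untreated cells. The second probeset was lowest in untreated cells in both experiments, whereas the first reached its lowest value on the Dox array of experiment 2. The first also stood above the second on the Dox+4μ8c array of experiment 2 and on the Dox array of experiment 1. Averaged over probesets, Cdkn1a differed by -0.05 with Dox+4μ8c and by -0.23 with Dox, with an SE of 0.12. Cdkn1b differed by 0.16 with Dox+4μ8c and by -0.04 with Dox, with an SE of 0.15.

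Ttk, the checkpoint kinase Mps1, was also read by 2 probesets that went apart most on the Dox array of experiment 2. Its probeset 1397476_at was -0.18 and 0.33 in Dox+4μ8c cells, 0.09 and -0.996 in Dox cells, and 0.00 and 0.05 in untreated cells. Its probeset 1379448_at was 0.00 and -0.08 in Dox+4μ8c cells, -0.02 and 0.00 in Dox cells, and 0.05 and 0.04 in untreated cells. Averaged, Ttk was -0.09 and 0.12 in Dox+4μ8c cells, 0.03 and -0.50 in Dox cells, and 0.02 and 0.05 in untreated cells. Of the 14 genes of the list with more than 1 probeset, these 3 had a gap of more than 0.5 between probesets in Dox minus untreated in experiment 2, and 0 did in experiment 1. In Dox+4μ8c minus untreated 0 of the 14 had such a gap in either experiment. The 5′ to 3′ changes of the spike-in controls (-0.65) and of β-actin (-0.22) on the Dox array of experiment 2 are given above. Their part in these values was not tested.

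**Figure D3:**
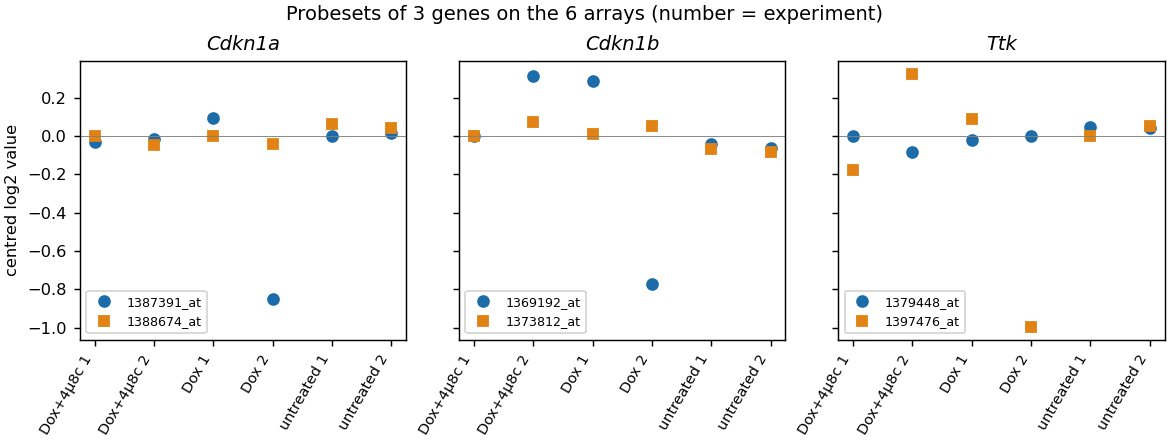
Centred log2 values of both probesets of Cdkn1a, Cdkn1b and Ttk on the 6 arrays, where the number after the group is the experiment. In each gene 1 probeset lies between -0.996 and -0.773 on the Dox array of experiment 2 while the other stays between -0.04 and 0.05.

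Set directly against Dox, the Dox+4μ8c arrays showed no shift of the list as a whole. The median difference of the 47 genes was -0.0008, with 14 lower in both experiments and 8 higher in both, and over all genes 26.9% were lower in both (37.3% of those not tied in experiment 1) and 19% higher in both. None of the 47 reached 1.5 fold, as 0.357% (lower) and 0.0397% (higher) of all genes did. The class medians were -0.02 for replication genes, 0.02 for mitotic genes, 0.01 for cyclins and Cdks and 0.08 for the inhibitors. The inhibitor median depended on single arrays, being 0.213 without the Dox array of experiment 1, -0.058 without that of experiment 2, 0.144 without the Dox+4μ8c array of experiment 1 and -0.008 without that of experiment 2. The most positive mean differences were those of Ccnd2 (0.34), Ttk (0.25), Cdkn1b (0.20) and Cdkn1a (0.18), and in experiment 1 alone these differences were 0.02, -0.12, -0.15 and -0.06. The most negative was that of Birc5 (-0.21), which was lower in both experiments (-0.19 and -0.24). Without the Dox array of experiment 1, which leaves the Dox array of experiment 2 as the only one of its group, 5 genes (Tyms, Ttk, Ccnd2, Cdkn1a and Cdkn1b) were called higher with Dox+4μ8c, and without the Dox array of experiment 2 none was. Ccnb1, Ccnb2 and Top2a were lowest on the Dox array in both experiments, and so were Aurkb, Bub1, Bub1b and Cenpf. The difference was 0.09 for Ccnb1 (95% interval -0.04 to 0.22), 0.09 for Top2a (-0.03 to 0.21) and 0.08 for Ccnb2 (-0.07 to 0.22). These intervals include 0 and also differences of the size that separated Dox+4μ8c from untreated cells. A p above the threshold therefore does not show that the groups were alike.

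Further genes of the same processes, listed beside the 47, were also mostly lower than in untreated cells. These lists too were chosen with earlier results of these data known. Of 42 further replication and repair genes, 32 were lower than untreated in both experiments with Dox+4μ8c and 28 with Dox, with medians of -0.16 and -0.12. Over all genes 28.9% and 24.8% were lower in both, or 39.7% and 33.2% of those not tied in experiment 1. With Dox+4μ8c 2 fell, Orc1 (-0.30) and Pola1 (-0.30, adjusted p = 0.04997), and 1 rose, against 1.13% of all genes called lower and 1.17% higher. With Dox 4 fell, namely Orc1 (-0.25), Pola1 (-0.25), Lig1 (-0.27) and Slbp (-0.37), and 2 rose, against 2.01% of all genes called lower and 4.42% higher. Orc1 is a subunit of the origin recognition complex, Pola1 the catalytic subunit of the polymerase that starts new strands, Lig1 the ligase that joins them, and Slbp the protein that binds histone mRNAs. Slbp was named after its value was seen.

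The replication genes that rose were Orc2 and Ung. Orc2, another subunit of the origin recognition complex, was 0.00 and 0.09 in Dox+4μ8c cells, 0.13 and 0.22 in Dox cells, and -0.28 and -0.17 in untreated cells. The order was Dox above Dox+4μ8c above untreated in both experiments. It rose by 0.27 with Dox+4μ8c and by 0.40 with Dox (adjusted p = 0.046 and 0.0063). Ung, the uracil DNA glycosylase, was 0.00 and 0.09 in Dox+4μ8c cells, 0.12 and 0.36 in Dox cells, and -0.26 and -0.09 in untreated cells. The untreated array was the lowest of each experiment, and Ung rose by 0.41 with Dox (adjusted p = 0.011). Without the untreated array of experiment 1 the Orc2 call with Dox was lost (adjusted p = 0.059). The Orc2 call with Dox+4μ8c was lost without either Dox+4μ8c array (0.34 and 0.40) or either untreated array (0.20 and 0.22), and the Ung call without either untreated array (0.075 and 0.076). Without the replicate block the Ung call with Dox (0.079) and the Orc2 call with Dox+4μ8c (0.13) were lost, and the Orc2 call with Dox+4μ8c was also lost under quantile normalization within an experiment (0.081).

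Of 47 further mitotic genes, 45 were lower than untreated in both experiments with Dox+4μ8c and 45 with Dox, with medians of -0.20 and -0.20. The all-gene shares were 28.9% and 24.8%, or 39.7% and 33.2% of genes not tied in experiment 1. With Dox+4μ8c 6 fell and 0 rose, where 1.13% of all genes were called lower and 1.17% higher. With Dox 9 fell and 0 rose, where 2.01% of all genes were called lower and 4.42% higher. Spc24, a subunit of the kinetochore complex that grips microtubules, fell by 0.39 with Dox+4μ8c and by 0.34 with Dox (differences -0.39 and -0.34, adjusted p = 0.023 and 0.016). Its values were -0.06 and -0.06 in Dox+4μ8c cells, 0.00 and -0.02 in Dox cells, and 0.38 and 0.27 in untreated cells. In each experiment the untreated array was well clear of the others. Pttg1, the securin that guards sister chromatid cohesion, fell by 0.29 with Dox+4μ8c and by 0.33 with Dox (differences -0.29 and -0.33). Ccnf, cyclin F, fell with Dox+4μ8c (-0.36) and with Dox (-0.31), Kif2c, a microtubule depolymerase, with Dox+4μ8c (-0.32), and Prc1 (-0.27), a microtubule bundler of cytokinesis, with Dox. Kif14, a motor of cytokinesis, fell with Dox+4μ8c (-0.29) and with Dox (-0.28).

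**Figure D4:**
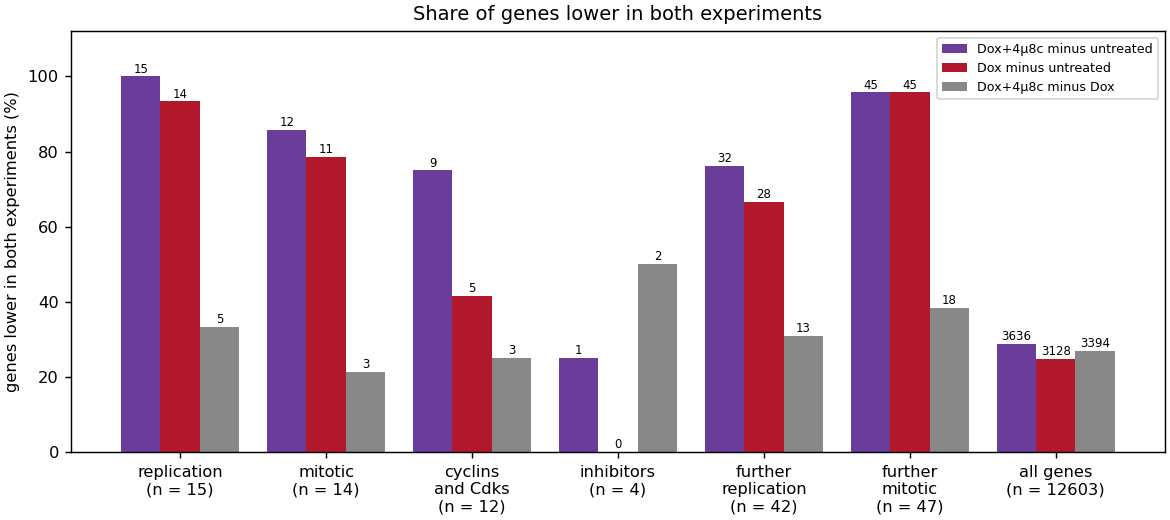
Share of genes (%) that were lower in both experiments, by gene list and comparison, with the number of genes above each bar and the number measured below each list. In the comparisons with untreated the bars of the mitotic and replication lists stand between 66.7% and 100%, against 28.9% and 24.8% of all genes. Among all genes not tied in experiment 1 the shares were 39.7% and 33.2%, which are not drawn.

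Cks1b, a small subunit that Cdk complexes bind, was the gene among these cell cycle lists that passed between Dox+4μ8c and Dox. Its values were -0.27 and -0.16 in Dox+4μ8c cells, 0.21 and 0.36 in Dox cells, and 0.00 and 0.16 in untreated cells. In both experiments the Dox array was the highest and the Dox+4μ8c array the lowest. It fell by 0.50 with Dox+4μ8c relative to Dox (difference -0.50, SE 0.05, adjusted p = 0.013) and by 0.29 relative to untreated (difference -0.29, adjusted p = 0.04). With Dox the difference from untreated was 0.21 and did not pass (adjusted p = 0.056). The call against Dox was lost without the Dox+4μ8c array of experiment 1 (adjusted p = 0.099) or 2 (0.27), without the replicate block (0.057) and under quantile normalization within an experiment (0.071). The call against untreated was lost without either Dox+4μ8c array (0.29 and 0.41), without either untreated array (0.16 and 0.24) and without the replicate block (0.17).

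Upstream regulators and further inhibitors were more mixed. Of 24 further regulators, 14 were lower than untreated in both experiments with Dox+4μ8c and 9 with Dox, with medians of -0.08 and -0.01. The counts are 58.3% and 37.5% of the regulators, against 28.9% and 24.8% of all genes. In experiment 1, 5 and 8 regulators were tied with untreated. The shares among untied genes (39.7% and 33.2%) are therefore not on the same base. Mybl2, the gene of B-Myb, was the regulator that passed, and it fell by 0.27 with Dox (difference -0.27, adjusted p = 0.026). Of 23 further inhibitors and p53 targets, 11 were lower in both experiments with Dox+4μ8c and 11 with Dox, with medians of -0.04 and -0.04. That is 47.8% in each group, against 28.9% and 24.8% of all genes, and 4 and 5 of the 23 were tied in experiment 1. Cdkn2d, the inhibitor p19, fell by 0.26 with Dox+4μ8c and by 0.25 with Dox (differences -0.26 and -0.25, adjusted p = 0.049 and 0.029). Tob1, an antiproliferative factor, fell by 0.26 with Dox (difference -0.26, adjusted p = 0.036). With Dox 2 of the 23 were called lower and 0 higher, against 2.01% and 4.42% of all genes. With Dox+4μ8c 1 was called lower and 0 higher, against 1.13% and 1.17%. Others of the list went the other way, 4 being higher than untreated in both experiments with Dox+4μ8c and 3 with Dox, against 23.9% and 26.6% of all genes.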

How the data were processed

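Total RNA of 6 samples was hybridized to Affymetrix rat 3′ IVT arrays, 2 arrays for each of 3 groups. The log2 values were deposited by the authors after RMA, a method of background correction, quantile normalization and probe summary that the submitters' processing notes give without a version. They are also centred per probeset. Of the 25476 probesets, 100.0% had a median of 0 over the 3 arrays of experiment 1 and 0.84% over those of experiment 2, whose values are compatible with a median over 4 arrays of which 1 is not used here. Levels, signal over background, detection calls and scan dates are not in the files, so depth cannot be given.

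Probesets with 1 symbol in the platform annotation (17978) were averaged per gene. Controls (52) and probesets with no symbol (7068) or several symbols (378) were left out, and no gene was filtered. The 3 comparisons were fitted on all 6 arrays in R 4.3.3 by limma 3.58.1 (two-sided moderated test from lmFit and eBayes, experiment as a term, 2 residual and 4.25 prior degrees of freedom), with adjustment over the whole table. The replicate number of the labels served as the experiment, since the study describes 2 independent experiments and the centring follows that number. Deviations of same-numbered arrays from their group means, across genes, correlated at r = 0.03 (Dox+4μ8c and Dox), 0.10 (Dox+4μ8c and untreated) and 0.03 (Dox and untreated), where the centring removes any offset that an experiment shares. Nothing says how cultures were kept apart within an experiment, so p-values measure only the spread between these arrays. Lists are described by counts and medians with no test over a list. The members and the further lists were chosen with earlier results of these data known.

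Values on each array were given for every member that passed and, in each class, for the 2 members with the largest positive and the 2 with the largest negative difference with Dox against untreated and with Dox+4μ8c against Dox, and up to 5 passing genes of each further list could be named. This rule took 46 genes, 24 of them members. The other members are given by their mean differences, and Slbp was added. Alternatives were another summary of probesets, other normalizations, a fit without the experiment term, robust eBayes and each array left out. Promoter windows were searched with Python 3.11.15 (pandas 2.3.3, numpy 2.4.6) and figures drawn with matplotlib 3.10.9.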

Additional observations from a re-analysis of the deposited data

How the results depend on the processing

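The count of the 47 genes lower than untreated in both experiments stayed between 39 and 40 with Dox+4μ8c and between 32 and 34 with Dox under the other summaries and normalizations. The calls of single genes depended on the processing, and the causes were not tested.

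Without the replicate block (the experiment term), which pairs arrays by number, all-gene calls with Dox+4μ8c against untreated were 0 higher and 0 lower with 0 of the 47 genes lower. With Dox they were 303 higher and 137 lower, and Pole and Aurkb still passed, while the calls of Ung, Orc1, Lig1, Slbp, Prc1, Pttg1, Mybl2 and Tob1 were lost. Between Dox+4μ8c and Dox they were 14 higher and 129 lower.

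With quantile normalization within an experiment, all-gene calls with Dox were 207 higher and 79 lower, those between Dox+4μ8c and Dox were 0 higher and 1 lower, and 0 of the 47 genes were lower with Dox+4μ8c or with Dox. The median of replication genes with Dox+4μ8c was then -0.183 and that of cyclins and Cdks with Dox -0.083. Of 237 results for single genes, 25 were weaker under quantile normalization. Among them were Pole and Aurkb with Dox (adjusted p = 0.0725 and 0.0625) and Pole with Dox+4μ8c (0.0529). Orc2 with Dox+4μ8c and Cks1b against Dox were lost as well. Still passing were Orc2 and Ung with Dox (0.0495 and 0.0401) and Cks1b against untreated (0.0352). Other calls of the further lists were not traced here and should not be read as kept. With each array centred on its median, 5 of the 47 genes were lower with Dox (Aurka, Aurkb, Ccnb1, Pole and Top2a), the median of cyclins and Cdks with Dox was -0.101, and that of replication genes between Dox+4μ8c and Dox -0.011. With probesets of several symbols added, 2 of the 47 genes were lower with Dox+4μ8c, and the replication median there was -0.178. Tested per probeset, 53 genes were higher and 30 lower with Dox+4μ8c against untreated, 142 lower with Dox, 0 higher and 0 lower between Dox+4μ8c and Dox, and 0 of the 47 genes lower with Dox+4μ8c or Dox.

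In experiment 1 alone the median of replication genes with Dox was -0.137, that of cyclins and Cdks -0.065 with Dox+4μ8c and -0.112 with Dox, and that of the inhibitors with Dox+4μ8c 0.004. In experiment 2 alone the median of cyclins and Cdks with Dox was -0.115, and that of replication genes between Dox+4μ8c and Dox -0.012. As alternatives chosen after seeing the data, the 47 genes held 29 (experiment 1 alone) and 23 (experiment 2 alone) that lay below Dox in Dox+4μ8c cells.

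With 1 array left out, a group of 1 array is assumed to vary like the others. All-gene calls then ranged, with Dox+4μ8c against untreated, between 8 and 318 higher and 2 and 394 lower, with Dox between 177 and 1104 higher and 61 and 655 lower, and between Dox+4μ8c and Dox between 0 and 325 higher and 0 and 580 lower. Of the 47 genes, 0 to 8 were lower with Dox+4μ8c (8 without either Dox array, 0 without any other array) and 0 to 7 with Dox (7 without the Dox array of experiment 1, 3 without that of experiment 2, 0 without any other). Between Dox+4μ8c and Dox 0 to 5 were higher (5 without the Dox array of experiment 1). Class medians ranged for replication genes between -0.188 and -0.139 with Dox+4μ8c, -0.163 and -0.136 with Dox, and -0.023 and -0.009 between these groups. For cyclins and Cdks they ranged between -0.131 and -0.088 with Dox+4μ8c, -0.126 and -0.078 with Dox, and -0.015 and 0.016 between these groups, and for the inhibitors between -0.059 and 0.129 with Dox+4μ8c, -0.149 and 0.094 with Dox, and -0.058 and 0.213 between these groups. For mitotic genes they ranged between -0.215 and -0.113 with Dox+4μ8c, -0.238 and -0.164 with Dox, and 0.021 and 0.05 between these groups. The calls with Dox+4μ8c of Orc1, Pola1, Spc24, Pttg1, Ccnf, Kif2c, Kif14 and Cdkn2d were each lost without either Dox+4μ8c array and without either untreated array, and those with Dox of Orc1, Pola1, Lig1, Spc24, Pttg1, Ccnf, Kif14, Prc1, Mybl2, Cdkn2d and Tob1 without either untreated array. Another background correction, a filter on dim probes and a scan date block were not run, since the files hold none of the values they need.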
